A study of Mus musculus with 61 samples.

Results

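The genes examined here were 9 members of the pathway that runs through the transcriptional coactivators Yap1 and Wwtr1 (TAZ). They were the coactivators Yap1 and Wwtr1, their DNA-binding partners Tead1, Tead2, Tead3 and Tead4, the target gene Ankrd1, the junction-associated inhibitor Amotl2, and the kinase Lats2. They were chosen by name, through the Ensembl identifier of each symbol, and were 9 of 46078 genes in the count table and 9 of the 24004 genes that passed the gene filter, so no member was lost.

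The samples were pools of 50 sorted cells from C57BL/6 mouse pancreatic duct organoids, which are cultures grown from the epithelium of the pancreatic duct. The cells carried lentiviral vectors in which doxycycline, given for 8 days, switched on LSSOrange-Pdx1 (P), tdTomato-MafA (M) or GFP-Ngn3 (N), through a Tet-On transactivator driven by the PGK promoter, and all samples shared that treatment. Cultures received either wild-type (WT) Ngn3 or 6SA Ngn3, a phospho-mutant in which serines are replaced by alanine. Sorting on the fluorescent proteins gave 6 combinations, P, M, PM, NP, NM and NPM, in each of the 2 cultures, or 12 conditions. P, M and PM cells carried no Ngn3 but came from the same infected cultures, and cells without any factor or with Ngn3 alone were not analysed here. Replicates 1 and 2 were at passage 2 and replicate 3 at passage 5. After libraries with up to 1000000 gene counts were left out, 58 of 61 libraries remained, which were summed to 32 samples with 2 or 3 replicates per condition and totals of 2579583 to 19461008 gene counts.

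As background, Yap1 and Wwtr1 are held in the cytoplasm when the Hippo kinases are active. The kinases Stk3 and Stk4 act on Lats1 and Lats2, which phosphorylate the coactivators, and angiomotin proteins such as Amotl2 bind them at cell junctions. When the kinases are inactive the coactivators enter the nucleus, bind Tead factors and raise targets such as Ankrd1, Ccn1 (Cyr61) and Ccn2 (Ctgf), and several inhibitors, among them Lats2 and Amotl2, are themselves targets. The pathway is known in the pancreas for its activity in duct and progenitor cells, and Yap1 is known to be low in differentiated endocrine cells. Transcript levels do not report the phosphorylation or the place of Yap1 and Wwtr1 in the cell.

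Tead factors bind the sequence GGAATG, which reads CATTCC on the opposite strand. Of the 9 members, 7 had promoter windows in the RefSeq table (build GRCm38.p6), and Tead1 and Tead4 had none. In the 250 bases before an annotated start, 5 of these 7 genes held the motif on one strand or the other, against 14.4% of 27025 genes in the table and 12.6% of 32851 windows. The 4 promoters below are shown because they carry the motif, in capitals, in both coactivators, in the inhibitor Amotl2 and in the target Ankrd1, which had the largest mean Ngn3 effect of the 9 members.
Ankrd1: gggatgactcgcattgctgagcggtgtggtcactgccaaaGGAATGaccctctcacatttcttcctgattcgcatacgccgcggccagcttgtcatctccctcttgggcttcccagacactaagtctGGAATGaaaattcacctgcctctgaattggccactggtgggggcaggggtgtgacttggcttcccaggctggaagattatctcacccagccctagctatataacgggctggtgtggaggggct
Amotl2: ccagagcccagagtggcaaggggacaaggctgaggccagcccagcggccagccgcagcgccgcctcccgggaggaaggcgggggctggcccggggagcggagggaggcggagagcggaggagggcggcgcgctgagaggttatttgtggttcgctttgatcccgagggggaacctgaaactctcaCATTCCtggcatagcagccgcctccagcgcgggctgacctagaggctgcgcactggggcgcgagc
Yap1: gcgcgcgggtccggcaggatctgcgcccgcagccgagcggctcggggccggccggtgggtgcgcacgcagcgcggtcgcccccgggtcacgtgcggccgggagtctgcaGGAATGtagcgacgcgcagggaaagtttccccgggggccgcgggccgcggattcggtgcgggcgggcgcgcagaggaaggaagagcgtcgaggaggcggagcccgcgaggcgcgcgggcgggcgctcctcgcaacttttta
Wwtr1: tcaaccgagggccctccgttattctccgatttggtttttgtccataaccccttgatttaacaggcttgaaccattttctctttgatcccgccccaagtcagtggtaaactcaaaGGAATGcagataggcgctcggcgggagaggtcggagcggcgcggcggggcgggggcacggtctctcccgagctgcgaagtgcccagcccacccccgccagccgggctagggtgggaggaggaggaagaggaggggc
These stretches were chr19:36119845-36120094 (minus strand) for Ankrd1, chr9:102717554-102717803 (plus strand) for Amotl2, chr9:8004597-8004846 (minus strand) for Yap1 and chr3:57575911-57576160 (minus strand) for Wwtr1, each read 5′ to 3′ and ending at the base before the start. The motif began 210 and 123 bases before the start in Ankrd1, 65 in Amotl2, 141 in Yap1 and 136 in Wwtr1. Tead3 held it 182 bases before 1 start and 123 and 114 bases before another, and the windows of Tead2 and Lats2 did not hold these letters. A match is a description of the sequence, and binding was not measured.

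Levels are given as CPM, which are counts per 1000000 gene counts, on TMM-scaled library sizes. Nothing in the labels says how separate the cultures behind the replicates were, so p-values measure the spread between these samples. Exons of Yap1 and Tead2 overlap those of Gm20416 and Cd37 on the opposite strand, which held at most 51 and 25 counts over all libraries. Exons of Lats2 overlap those of Gm49361 on the same strand, a gene that was not in the count table. The factor labels were borne out by the transcripts for Ngn3, with Neurog3 at 7.87 to 329 CPM in the 17 Ngn3-positive samples and at most 0.787 CPM in the 15 others. Pdx1 (9.84 to 191 CPM with the factor by label, 3.21 to 30.6 CPM without) and Mafa (0 to 12.7 CPM with, at most 0.116 CPM without) overlapped between labels. The 7 duct markers summed to 10238 to 56788 CPM in Ngn3-negative and 1388 to 16495 CPM in Ngn3-positive samples. Spp1 had the largest part without Ngn3 (median 15362 CPM, against 2557 CPM with it). Medians were closer for Krt7 (1164 and 896 CPM) and Sox9 (158 and 116 CPM), and Cftr was at 0 in 3 samples. In the mean Ngn3 effect given below, 4 duct markers were called lower and 3 were not called, where 10.5% of all genes were lower. The 7 endocrine markers summed to at most 8.18 CPM without Ngn3 and to 407 to 13252 CPM with it. The part of these marker changes in the levels below was not tested. A pool of cells cannot tell fewer cells that express a gene from less RNA per cell. Pnlip and Ptf1a of the acinar list were at 0 in all 32 samples, whereas Cela1 of that list reached 12.7 CPM without Ngn3 and 9.71 CPM with it. The endothelium list of 3 genes summed to at most 0.280 CPM without Ngn3 and 26.5 CPM with it. The leukocyte list of 3 genes summed to at most 18.2 CPM without and 43.5 CPM with Ngn3. The mesenchyme list of 6 genes summed to at most 19.1 CPM in every sample except WT NM replicate 1, which had 296 CPM.

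Per kilobase of exon, the 9 genes covered a wide range in the 15 Ngn3-negative samples. The mean level in CPM per kilobase was 323 for Ankrd1, 61.7 for Amotl2, 17.2 for Wwtr1, 11.3 for Tead2, 10.4 for Lats2, 6.39 for Yap1, 5.91 for Tead1, 2.10 for Tead4 and 1.39 for Tead3. Duct organoid cells without Ngn3 thus held more Wwtr1 than Yap1 transcript per length, and Tead2 was the Tead gene with the highest mean level on that scale. In each of the 9 genes, all 11 neighbouring pairs in the order of the 12 condition means had overlapping samples. The test of any difference among the 12 conditions called 7.20% of all genes and 0 of the 9 members by edgeR's quasi-likelihood test with Benjamini-Hochberg adjustment (lowest adjusted p = 0.136, Ankrd1), whereas 3 members had an unadjusted p under 0.05 and DESeq2 called 3. With the replicate number as a block 1 was called, Ankrd1 (edgeR adjusted p = 0.00566). Of all 24004 genes DESeq2 called 3257 and the block 3211.

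**Figure D1:**
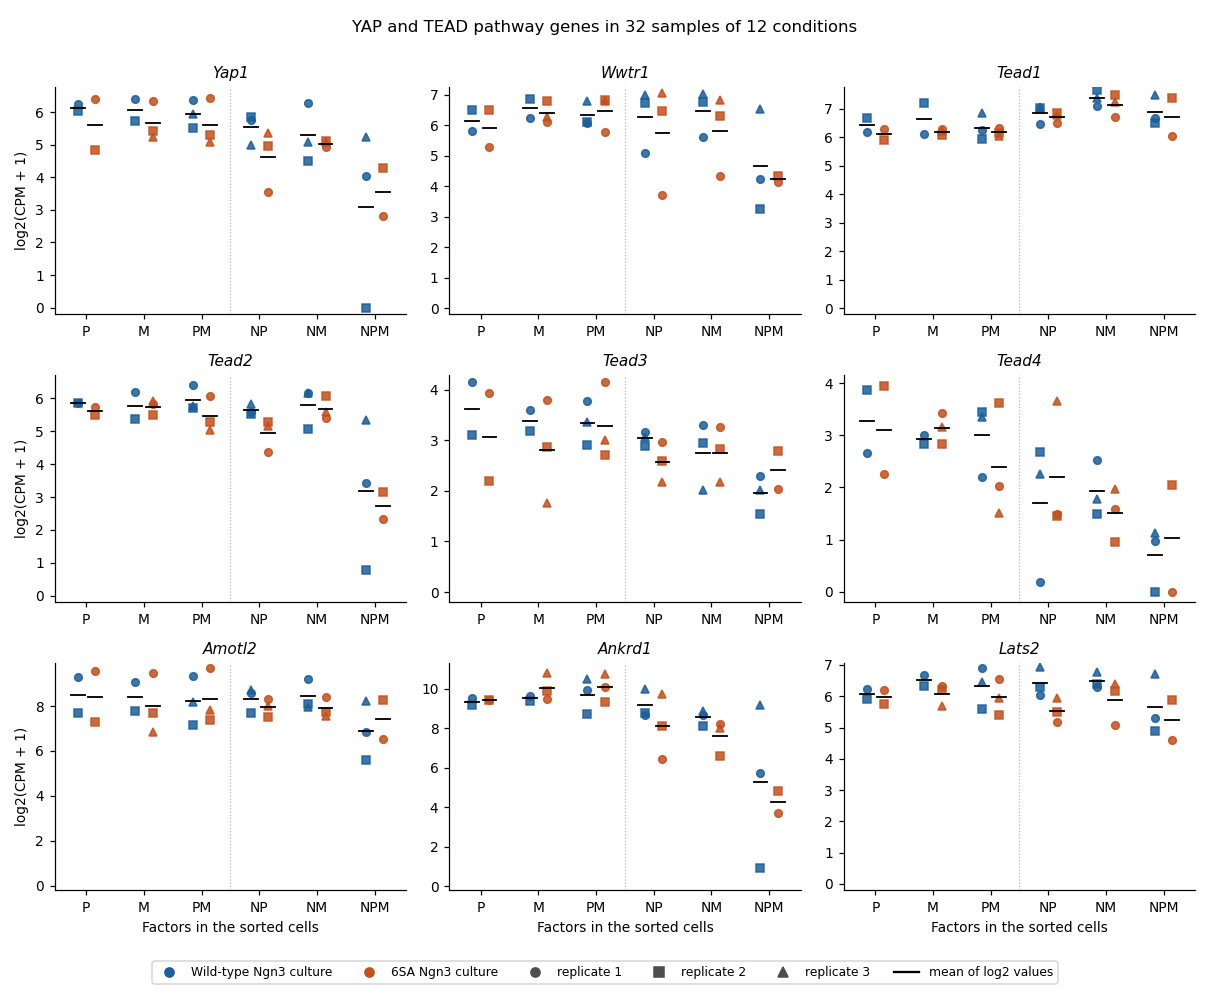
Level of each gene as log2(CPM + 1) in every sample, by factor combination (P, Pdx1; M, MafA; N, Ngn3), with culture as colour, replicate as symbol and a bar for the mean of the log2 values. Ankrd1, Tead2, Yap1 and Wwtr1 lay lowest in NPM cells, in most samples of both cultures, while Tead1 lay higher right of the dotted line, which separates Ngn3-negative from Ngn3-positive conditions.

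The main comparison set cells sorted for Ngn3 against cells without it that carried the same companion, Pdx1, MafA or both, after all vectors had been induced together. Averaged over the 6 comparisons of an Ngn3-positive with its Ngn3-negative condition, 5 members were lower, 1 was higher and 3 did not pass the test. Ankrd1, Tead4, Yap1, Tead2 and Tead3 were lower, whereas Tead1 was higher. Across all genes, 10.5% were called lower and 11.1% higher in this comparison, 21.5% in either direction, and the median log2 fold change was −0.87 over the 9 members and 0.07 over all genes tested.

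Of the coactivators, Yap1 stood at 27.8 to 85.8 CPM (median 60.3) in the Ngn3-negative samples. In the Ngn3-positive samples it ranged from 0 to 77.1 CPM (median 30.8), and the groups overlapped, with 6 of 17 Ngn3-positive samples under the lowest Ngn3-negative one. The log2 fold change was −1.16 ± 0.36 (standard error), a level 2.23-fold lower (edgeR adjusted p = 0.0199), and the mean was lower with Ngn3 in 6 of 6 comparisons. Without 6SA NPM replicate 1 or 6SA P replicate 1 the adjusted p was 0.0559 or 0.0670, and without replicate 1 of every condition the fold change was −0.62 (adjusted p = 0.369).

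Wwtr1, the paralogue of Yap1, ranged from 38.2 to 114 CPM (median 76.2) without Ngn3 and from 8.48 to 131 CPM (median 76.9) with it. The spread widened in both directions, with 7 Ngn3-positive samples below and 3 above all Ngn3-negative ones, and the mean was lower in 3 comparisons and higher in the other 3, where the Ngn3-negative condition (WT P, 6SA P or WT M) had no replicate 3. Between same-numbered samples of the same culture and companion, it was lower with Ngn3 in 12 of 14. The log2 fold change of −0.52 ± 0.32 did not pass the test (edgeR adjusted p = 0.299; 95% interval −1.17 to 0.13). It passed with the replicate number as a block (−0.83, edgeR adjusted p = 0.00617; 27.6% of all genes were called in that fit), where the value with Pdx1 alone turned from 0.28 to −0.29, neither of which was called. It also passed without WT NPM replicate 3 (−0.78, adjusted p = 0.0483) or without replicate 3 of every condition, which leaves passage 2 only (−0.99, adjusted p = 0.0299).

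Among the DNA-binding partners, Tead1 ran opposite to the other Tead genes. It was at 59.4 to 144 CPM (median 73.8) without Ngn3 and at 64.6 to 202 CPM (median 130) with it, and the groups overlapped. The log2 fold change was 0.66 ± 0.16 (edgeR adjusted p = 0.00325), with a higher mean in 6 of 6 comparisons, and the call was kept when any single sample was left out. It was lost without replicate 2 of every condition (0.55, adjusted p = 0.163).

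Tead4 was a low transcript, at 1.86 to 14.5 CPM (median 7.07) without Ngn3 and 0 to 11.6 CPM (median 1.83) with it. In MafA cells it was at 6.16 to 9.74 CPM in the 5 M samples and 0.934 to 4.76 CPM in the 6 NM samples. All NM samples were below all M samples there, as in 2.03% of all genes, but the test of that comparison was not passed (−1.58 ± 0.87, edgeR adjusted p = 0.406). Its mean log2 fold change was −1.80 ± 0.52, or 3.48-fold lower (edgeR adjusted p = 0.0128), and the call was kept in all 32 fits that left out 1 sample. Over those fits the value ran from −2.95 to −1.57.

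Tead2 fell from 31.6 to 84.9 CPM (median 53.2) without Ngn3 to 0.731 to 71.4 CPM (median 39.8) with it, a log2 fold change of −0.95 ± 0.28 (edgeR adjusted p = 0.0133). The 5 Ngn3-positive samples below the Ngn3-negative range were 4 of NPM and 1 of NP. The mean was lower with Ngn3 in 5 of 6 comparisons. By companion the log2 fold change was −0.44 with Pdx1 and 0.00177 with MafA, neither of which was called, and −2.43 with both. Without replicate 1 of every condition the mean effect was −0.55 (adjusted p = 0.352).

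Tead3, at 2.37 to 16.8 CPM (median 8.02) without and 1.90 to 8.79 CPM (median 5.90) with Ngn3, had a log2 fold change of −0.87 ± 0.30 (edgeR adjusted p = 0.0335). This call was lost in 11 of the 32 fits that left out 1 sample, at adjusted p values up to 0.163, and with RLE size factors (−0.78, adjusted p = 0.0547). Only 1 Ngn3-positive sample of Tead3 was outside the Ngn3-negative range.

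Ankrd1, a nuclear and sarcomeric ankyrin-repeat protein used as a standard readout of Yap1 and Tead activity, had the largest change of the 9. It was at 420 to 1790 CPM (median 740) without Ngn3 and at 0.878 to 1023 CPM (median 278) with it, and 12 of 17 Ngn3-positive samples lay under the lowest Ngn3-negative one. Its log2 fold change was −2.04 ± 0.43, or 4.10-fold lower (edgeR adjusted p = 0.000766), and it stayed called without any single sample or replicate number. In MafA cells it was at 668 to 1790 CPM in M and 95.3 to 477 CPM in NM samples, again with all NM samples below all M samples, but the test of that comparison was not passed (−1.67 ± 0.71, edgeR adjusted p = 0.225).

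The inhibitors did not pass the test. Amotl2 was at 113 to 832 CPM (median 226) without Ngn3 and at 47.0 to 594 CPM (median 252) with it, with a log2 fold change of −0.65 ± 0.33 (edgeR adjusted p = 0.183; 95% interval −1.32 to 0.02). It was lower in 6 and higher in 8 of the 14 same-numbered comparisons, and its direction rested on replicate 1, without which the value was 0.37 (adjusted p = 0.482). Lats2 was at 41.3 to 119 CPM (median 72.1) without Ngn3 and at 23.3 to 122 CPM (median 65.4) with it, with a log2 fold change of −0.23 ± 0.20 (adjusted p = 0.551; 95% interval −0.65 to 0.18), and the sign turned to 0.28 without replicate 1.

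**Figure D2:**
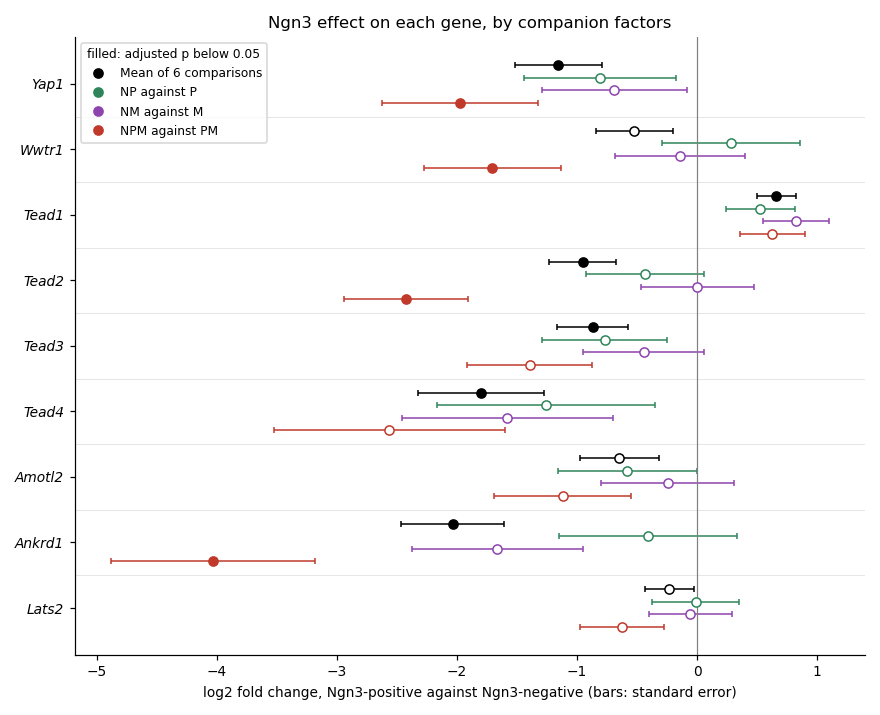
Log2 fold change of each gene between Ngn3-positive and Ngn3-negative cells, as the mean of the 6 comparisons and for each companion factor or factors, with standard errors as bars and filled points where the adjusted p was below 0.05. The called NPM against PM values were those of Ankrd1 (−4.03), Tead2 (−2.43), Yap1 (−1.97) and Wwtr1 (−1.71), all left of 0, and the 4 values of Tead1 lay to the right of 0.

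The Ngn3 effect was then taken separately for each companion. With both Pdx1 and MafA, the combination that carries all 3 factors, 4 members were lower, where 8.40% of all genes were called lower and 17.8% in either direction. With MafA alone 0 of 9 members were called, where 4.67% of genes were. Of these, 2 had an unadjusted p under 0.05, Tead1 (0.82 ± 0.28) and Ankrd1 (−1.67 ± 0.71), and DESeq2 called 1, where it called 1928 of 24004 genes. Tead1 was also called without WT M replicate 2 (edgeR adjusted p = 0.04997), and Ankrd1 when only the M and NM conditions were fitted (0.00198). With the replicate block, where 8.84% of genes were called, both passed, at 0.78 (edgeR adjusted p = 0.0421) for Tead1 and −1.85 (0.0382) for Ankrd1. With Pdx1 alone 0 of 9 were called, where 1.49% of genes were, with 0 at an unadjusted p under 0.05 and 0 by DESeq2, and the block called 0 members where it called 4.21% of genes. The 9 log2 fold changes with Pdx1 ran from −1.26 to 0.53.

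In triple-factor cells Ankrd1 was at 53.2, 0.878 and 572 CPM in WT NPM replicates 1, 2 and 3 and at 12.1 and 27.5 CPM in 6SA NPM replicates 1 and 2, against 420 to 1732 CPM in the 6 PM samples. Thus 4 of 5 NPM samples were below all PM samples, whereas WT NPM replicate 3, the passage 5 sample, lay among them. Its log2 fold change was −4.03 ± 0.85, or 16.4-fold lower (edgeR adjusted p = 0.00136), and its call was kept without any 1 sample (−5.50 to −3.74).

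Tead2 showed the same order of samples. It was at 9.72, 0.731 and 39.8 CPM in WT NPM and at 4.07 and 7.81 CPM in 6SA NPM, against 31.6 to 84.9 CPM in PM. This was a log2 fold change of −2.43 ± 0.52, or 5.37-fold lower (edgeR adjusted p = 0.00149), and it was called without any 1 sample.

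Yap1 was at 15.3, 0 and 36.6 CPM in WT NPM and at 6.04 and 18.3 CPM in 6SA NPM, against 32.9 to 85.8 CPM in PM. No Yap1 read was counted in WT NPM replicate 2. The log2 fold change was −1.97 ± 0.65 (edgeR adjusted p = 0.0342), and the call was lost in 5 of 32 fits without 1 sample, those without 6SA NPM replicates 1 or 2, WT NPM replicate 1, or replicate 1 of either PM condition (adjusted p up to 0.169), and when only the conditions compared were fitted (0.0805).

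Wwtr1 was at 17.9, 8.48 and 91.6 CPM in WT NPM and at 16.5 and 19.01 CPM in 6SA NPM, against 53.7 to 112 CPM in PM. The log2 fold change was −1.71 ± 0.57 (edgeR adjusted p = 0.0368). The call was lost in 8 of 32 fits without 1 sample, which were those without any NPM sample but WT replicate 3 and those without replicates 2 or 3 of either PM condition (adjusted p up to 0.130).

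The remaining members in NPM cells gave values that did not pass the threshold. Tead3 and Tead4 had log2 fold changes of −1.40 ± 0.52 (edgeR adjusted p = 0.0626) and −2.56 ± 0.96 (0.0632), and both were called by DESeq2 and with the replicate block (edgeR adjusted p = 0.0255 and 0.0402). With 1 sample left out the Tead4 value ran from −6.02 to −1.98. Tead1 was at 64.6 to 179 CPM in NPM and 59.8 to 114 CPM in PM (0.63 ± 0.27, edgeR adjusted p = 0.108; DESeq2 0.0251). Amotl2 was at 115, 47.0 and 298 CPM in WT NPM and 92.4 and 311 CPM in 6SA NPM, against 141 to 832 CPM in PM (−1.12 ± 0.57, edgeR adjusted p = 0.183), and Lats2 had a value of −0.62 ± 0.35 (0.230). Lats2 was called lower without WT NPM replicate 3 (edgeR adjusted p = 0.0356).

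**Figure D3:**
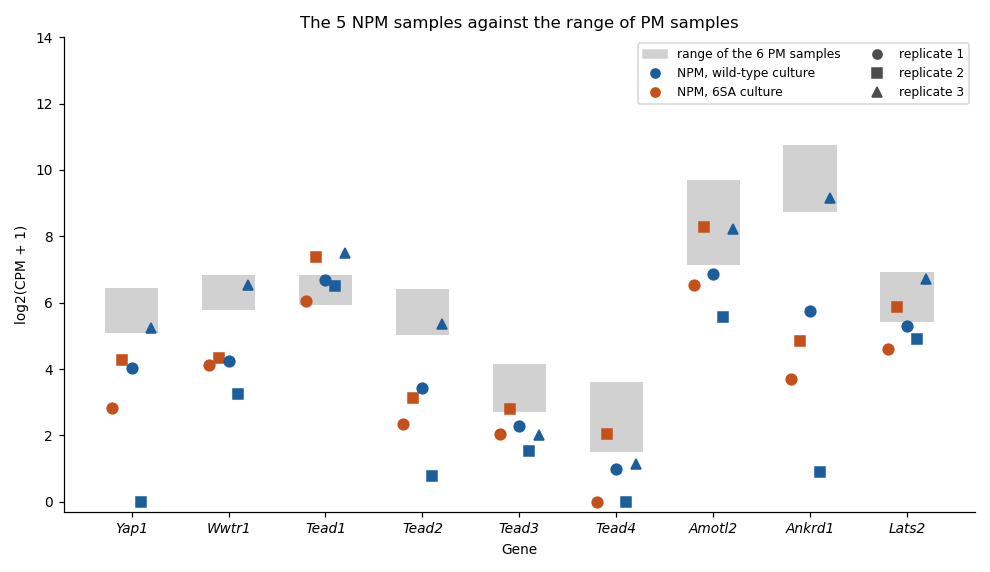
Level as log2(CPM + 1) of each gene in the 5 NPM samples (points, colour for culture and symbol for replicate) beside the range of the 6 PM samples (grey bars). The passage 5 sample (triangle) lay inside the grey range for Yap1, Wwtr1, Tead2, Amotl2, Ankrd1 and Lats2, while the other 4 samples lay under it for Yap1, Wwtr1, Tead2 and Ankrd1.

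The marker lists moved with that order in part. The 7 endocrine markers summed to 5554, 4626 and 980 CPM in WT NPM replicates 1, 2 and 3 and to 8764 and 7913 CPM in 6SA NPM, so the passage 5 sample also had the lowest endocrine sum, and the duct markers to 1388, 1852 and 2653 CPM and to 1716 and 2202 CPM. The leukocyte list summed to 22.0, 32.6 and 9.31 CPM and to 38.5 and 37.3 CPM in the same samples, against 8.71 to 17.9 CPM in PM. Their part in the levels above was not tested. The passage 5 sample of 6SA NPM had 408733 gene counts and was left out, and on plain totals it held 85 Ankrd1 reads (208 CPM), 10 Yap1 reads (24.5 CPM) and 16 Wwtr1 reads (39.1 CPM). With all libraries kept, 4701 rather than 4279 of 24004 genes were called in the NPM comparison, among them 7 rather than 4 members. Without replicate 3, which leaves passage 2 only, 4 were called, and without WT NPM replicate 1 or without replicate 2 of every condition, 2 were called.

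Whether the Ngn3 effect differed between companions was tested as an interaction, and 0 of 9 members passed. In the Ngn3 effect with both factors minus that with Pdx1, where 0.0792% of genes were called, Ankrd1 had −3.62 ± 1.10 (edgeR adjusted p = 0.310), 3 members had an unadjusted p under 0.05 and DESeq2 called 1. Neither P condition had a replicate 3. With the replicate block this Ankrd1 difference was −2.91 (edgeR adjusted p = 0.215), and its effect with Pdx1 alone went from −0.41 to −1.16. In the effect with both minus that with MafA, where 0.050% were called, Tead2 had −2.43 ± 0.69 (edgeR adjusted p = 0.229), 2 had an unadjusted p under 0.05 and DESeq2 called 1. Of all 24004 genes DESeq2 called 224 and 349 in these comparisons. The block called 0 members in either, where it called 0.225% and 0.258% of genes. Without replicate 3 of every condition this Tead2 difference was called (edgeR adjusted p = 0.0313). For the effect with MafA minus that with Pdx1, 0 members had an unadjusted p under 0.05, 0 were called by DESeq2, and edgeR called 0.00% of genes.

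Among Ngn3-positive cells the triple-factor cells were also set against the others. Tead2 and Ankrd1 were lower in NPM than in NP, by −1.97 ± 0.51 (edgeR adjusted p = 0.0385) and −2.98 ± 0.80 (0.0481) on the log2 scale, where 1.35% of genes were called lower and 1.88% in either direction. Both calls were lost when all libraries were kept or when replicate 2 was left out, that of Tead2 also without replicate 1, and that of Ankrd1 also with the first technical repeat only. In NPM against NM, Tead2 was lower by −2.46 ± 0.52 (edgeR adjusted p = 0.0101), where 1.56% of genes were called lower and 2.72% in either direction, and this call was lost without replicate 2. With the replicate block Wwtr1 was called lower in both comparisons, by −1.32 against NP (edgeR adjusted p = 0.0477) and −1.37 against NM (0.0267), and Ankrd1 also against NM (−2.35, 0.0179), where the block called 4.95% and 8.49% of genes. Tead2 was at 19.8 to 55.9 CPM in NP and 32.7 to 71.4 CPM in NM, with 1 of 5 NPM samples within both ranges. In NM against NP 0 members were called (0 at an unadjusted p under 0.05, 0 by DESeq2), where edgeR called 0.133% of genes, and 0 with the block, where it called 216 of 24004 genes.

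Pdx1 and MafA without Ngn3 were compared among P, M and PM cells. None of the 3 comparisons called any of 24004 genes (0.00%) by edgeR, and 0 members had an unadjusted p under 0.05 or were called by DESeq2. The log2 differences of the 9 members ran from −0.36 to 0.45 for M against P, −0.54 to 0.64 for PM against P and −0.19 to 0.20 for PM against M. Ankrd1, for example, was at 574 to 740 CPM in P, 668 to 1790 CPM in M and 420 to 1732 CPM in PM.

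The phospho-mutant was compared with wild-type Ngn3. In Ngn3-positive cells 0 members were called, in a comparison that called 0.00% of all genes by edgeR, with 2 members at an unadjusted p under 0.05 and 0 by DESeq2. These were Ankrd1, with a log2 difference of −1.62 ± 0.59 (edgeR adjusted p = 0.780; 95% interval −2.84 to −0.40), and Lats2, with −0.65 ± 0.28 (0.809). Ankrd1 was at 0.878 to 1023 CPM (median 415) in the 9 Ngn3-positive samples of WT and 12.1 to 868 CPM (median 176) in the 8 of 6SA, which overlapped. In Ngn3-negative cells of the 2 cultures the differences ran from −0.37 to 0.34, with 0 members called by edgeR (0.00% of genes), at an unadjusted p under 0.05 or by DESeq2. The 6SA minus WT difference in the Ngn3 effect called 0 members (0.00% of genes), with 1 at an unadjusted p under 0.05, Ankrd1 (−1.96 ± 0.85; edgeR adjusted p = 1.00), and 0 by DESeq2.

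The wider pathway was described from lists chosen with earlier results of these data known. Of 20 Hippo regulators, 3 were lower, 1 was higher and 16 were not called in the mean Ngn3 effect, where 21.5% of all genes were called, and the list's median log2 fold change was 0.01 against 0.07 over all genes. The kinases did not pass the test. Values were −0.20 ± 0.23 for Stk3, −0.12 ± 0.14 for Stk4 and 0.25 ± 0.15 for Lats1, and Nf2, the scaffold upstream of them, was at 0.10 ± 0.23 (edgeR adjusted p from 0.287 to 0.993).

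Amot, Wwc1 and Ajuba were the regulators called lower, in a list whose share of called genes was close to the 21.5% of all genes. Amot, the angiomotin that binds Yap1, was at 37.9 to 146 CPM without Ngn3 and 4.14 to 47.5 CPM with it (−1.71 ± 0.22, edgeR adjusted p = 1.35e-06). Wwc1 (Kibra), an activator of the Lats kinases, had a value of −1.41 ± 0.20 (6.85e-06), and Ajuba, a LIM protein that inhibits them, −1.69 ± 0.36 (0.000814). Amotl1 was higher, at 0.63 ± 0.18 (0.0127), but not without replicate 2 (0.47, adjusted p = 0.333) or replicate 3 (0.38, 0.174). The 3 angiomotin genes therefore gave different values, with Amot called lower, Amotl1 called higher and Amotl2 not called. Vgll4, which competes with Yap1 for Tead factors, was at 38.9 to 83.6 CPM without and 14.5 to 43.8 CPM with Ngn3 (−0.94 ± 0.17, edgeR adjusted p = 0.000158), Vgll3 was not called, and Vgll1 and Vgll2 did not pass the gene filter, with Vgll1 at 0 in all samples.

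Of 19 known targets of Yap1 and Tead, 8 were lower, 4 were higher and 7 were not called in the same comparison, with a median of −0.58, against 10.5% of all genes called lower, 11.1% called higher and a median of 0.07. Nuak2, a kinase, fell from 77.7 to 335 CPM (median 212) to 11.9 to 123 CPM (median 40.5), a change of −2.20 ± 0.21 (edgeR adjusted p = 1.39e-08). F3, tissue factor, had −1.88 ± 0.22 (2.47e-07) and Tgfb2, a growth factor, −1.81 ± 0.29 (2.95e-05). The matricellular genes Ccn1 and Ccn2 had −1.39 ± 0.42 (0.0174) and −2.04 ± 0.48 (0.00232). The call of Ccn1 was lost without replicate 1 (−0.67, adjusted p = 0.380) and without 6SA NPM replicate 1 (−1.26, 0.0503).

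Ccn1 and Ccn2 were also lower in the triple-factor cells. Ccn1 was at 1492 to 5051 CPM in PM and 1.46 to 1893 CPM in NPM, and Ccn2 at 162 to 796 CPM in PM and 0.439 to 103 CPM in NPM, where all NPM samples were below all PM samples, as in 5.42% of all genes. Their log2 fold changes there were −2.82 ± 0.80 (edgeR adjusted p = 0.0141) and −3.66 ± 0.93 (0.00658). In that comparison 6 of the 19 targets were lower, 4 higher and 9 not called, where 8.40% of all genes were called lower and 17.8% in either direction. Of the 20 Hippo regulators 4 were lower, Amot, Wwc1, Ajuba and Mob1a, the last of which was named after its value was seen.

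Other listed targets rose. Nt5e, an ectonucleotidase, was at 0 to 2.25 CPM without Ngn3 and 0 to 36.6 CPM with it (mean effect 4.25 ± 0.59, edgeR adjusted p = 4.30e-06), highest in NM cells at 12.2 to 36.6 CPM. Its call was lost without 6SA NPM replicate 2 (3.35, adjusted p = 1.00) and without replicate 2 of every condition (3.03, 1.00). Asap1, a regulator of Arf proteins, had 0.83 ± 0.17 (0.000682), and 0.74 without replicate 2 (0.0579). Gadd45a, a stress-response gene, and Foxf2, a forkhead factor at no more than 10.5 CPM in any sample, were also called higher (edgeR adjusted p = 0.0442 and 0.0407), and were named after their values were seen.

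**Figure D4:**
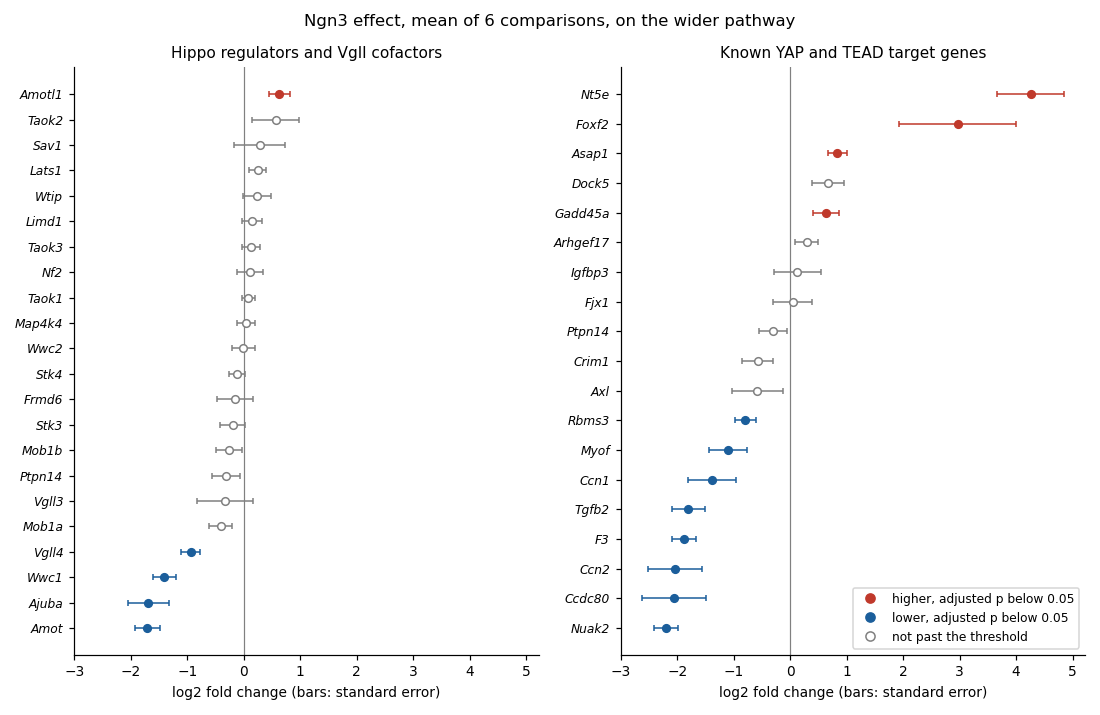
Mean Ngn3 effect over the 6 comparisons as log2 fold change with standard error for 20 Hippo regulators and 2 Vgll cofactors (left) and 19 known Yap1 and Tead targets (right), coloured by call. Most regulators lay near 0 apart from Amot, Ajuba, Wwc1 and Vgll4 to the left and Amotl1 to the right, while targets lay on both sides, from Nuak2 (−2.20) to Nt5e (4.25).

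Across the 12 condition means of log2(CPM + 1), Yap1, Wwtr1, Tead2 and Ankrd1 varied together, with Pearson's r of 0.91 to 0.95 between them, and Tead1 had r of −0.39 with Yap1 and −0.46 with Ankrd1. These are descriptions over 12 points that share libraries and scaling. Among 10174 genes with a mean of at least 10 CPM, the patterns most like Yap1 were those of Arhgap42 (r = 0.98), Rest (0.98) and Frrs1 (0.97). For Wwtr1 they were Ddah1 (0.98), Cdk6 (0.98) and 2610307P16Rik (0.97), and for Amotl2 they were Lrrk1 (0.97), Tnfrsf22 (0.96) and Manea (0.95).

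The replicates of a condition differed strongly in several members, and in the same way in many conditions. In the Ngn3-negative samples Amotl2 was at 536 to 832 CPM in the 6 samples numbered 1, at 141 to 219 CPM in the 6 numbered 2 and at 113 to 293 CPM in the 3 numbered 3. Yap1 was at 75.5 to 85.8 CPM in number 1, 27.8 to 64.0 CPM in number 2 and 32.9 to 60.3 CPM in number 3. Ankrd1 was at 1450 to 1790 CPM in number 3 and at 420 to 1111 CPM in the others. How many of all genes separate by number in this way was not counted. In Ngn3-positive samples Wwtr1 was at 12.1 to 48.1 CPM in number 1, 8.48 to 106 CPM in number 2 and 91.6 to 131 CPM in number 3.

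A test of replicate number within a fit that held the 12 conditions, chosen after these levels were seen, called 4 of the 9 members, where 28.1% of all genes were called. These were Wwtr1 (edgeR adjusted p = 0.000661), Amotl2 (0.00588), Ankrd1 (0.0150) and Tead3 (0.0361), and Yap1 was not called (0.508). Numbers 1 and 2 share a passage, and for number 3 the passage and the replicate cannot be told apart.

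**Figure D5:**
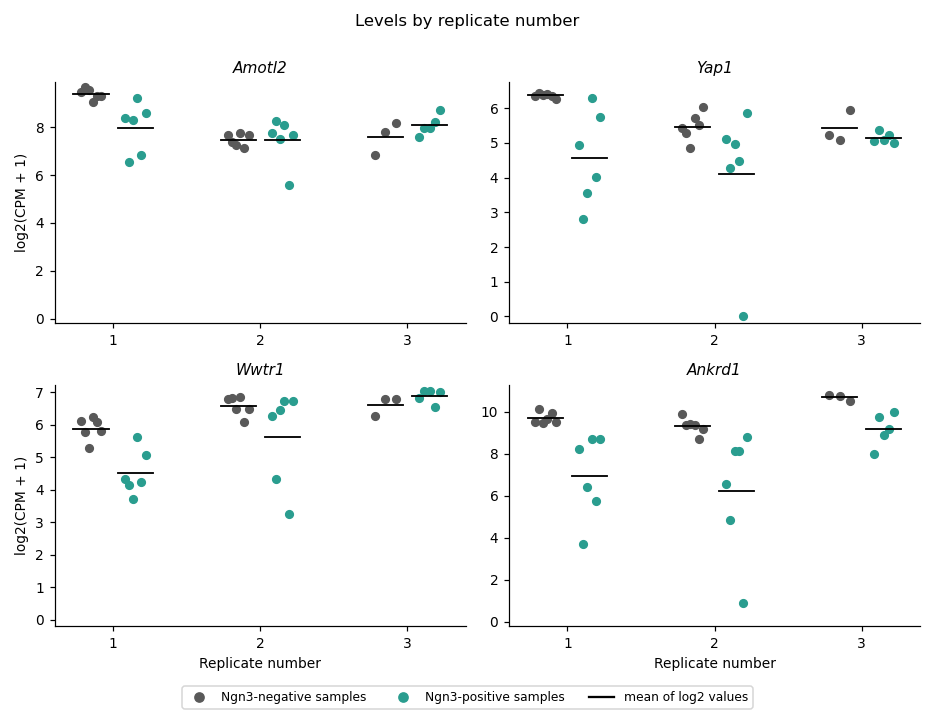
Level as log2(CPM + 1) of Amotl2, Yap1, Wwtr1 and Ankrd1 by replicate number, in Ngn3-negative (grey) and Ngn3-positive (green) samples of all conditions, with bars for the mean of the log2 values. The grey points of Amotl2 and Yap1 were highest in number 1, and those of Ankrd1 in number 3.

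Libraries labelled as technical repeats of a sample differed as well. In 17 samples with more than 1 library, the standard deviation of log2(CPM + 1) between repeats was 1.05 for Ankrd1, 0.672 for Yap1, 0.670 for Amotl2 and 0.359 for Tead1, against 1.54, 1.09, 1.03 and 0.412 between replicates of a condition. The spread between repeats was close to that between replicates in Tead1, Lats2 (0.530 against 0.569) and Tead4 (0.788 against 0.905), and smaller in Ankrd1, Yap1 and Amotl2. The 2 measures differ, because repeats were single libraries on plain totals and replicates were TMM-scaled sums of libraries.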

How the data were processed

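RNA of 50-cell pools was sequenced after Smart-seq2 amplification and Nextera XT library preparation. The authors aligned reads with GSNAP to mm10 and counted them per Ensembl gene with HTSeq (0.5.3p3), and deposited raw counts per gene and library. The strand setting of the counting was not given in the sources used here. HTSeq summary rows, 33.9 to 67.3% of reads per library, and 92 spike-ins stayed out of library sizes and tests.

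Libraries with over 1000000 gene counts, under 25% spike-in reads and over 10000 detected genes were kept (58 of 61), and technical repeats were summed to 32 samples (median 8490758.5 counts). Tests covered the 24004 genes that had reads in 5 or more libraries and varied by more than 0.001 (variance of log2(CPM + 1)). The main test was edgeR (4.0.16, R 4.3.3), with TMM scaling, trended dispersion and the quasi-likelihood F test on a model with 1 term per condition, with Benjamini-Hochberg adjustment over all genes tested and a threshold of 0.05. Standard errors are those implied by the F statistic. DESeq2 (1.42.0), RLE size factors, other gene and library filters, a replicate block, the first technical repeat only, fits of the conditions compared, and each sample or replicate number left out were the alternatives. The edgeR fit without its legacy setting and the test of replicate number were added after the data were seen. The procedure was tested on simulated data. Replicate numbers come from the sample titles, and samples that share a number departed from the means of their conditions together (5000 genes), with correlations of 0.127 to 0.330 in WT NPM and PM and of 0.234 to 0.441 in 6SA NM and M, the comparisons with 3 pairs, so the numbers were taken to pair samples. With 2 pairs the correlation was 0.708 (WT NP and P), 0.779 (6SA NP and P), 0.429 (WT NM and M) and −0.414 (6SA NPM and PM). Values with the replicate block stand beside each result whose call they change.

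All 9 members were named. Of the pathway lists, at most 8 called genes per list by lowest adjusted p were named, besides Ccn1, Ccn2, Lats1, Stk3, Stk4, Nf2 and Vgll4, and for Yap1, Wwtr1 and Amotl2 the 3 genes most alike in pattern. The members and lists were chosen with earlier results of these data known. Of 46078 genes, 45229 had a symbol.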

Additional observations from a re-analysis of the deposited data

Results flagged for a closer look

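In 54 groups of 4 to 6 samples, each a member in 1 factor combination with both cultures together, a sample was examined for a gap to its nearest neighbour above Dixon's 95% critical value. This held in 8, each time for the highest sample. The critical value assumes normally distributed values, whereas these were untransformed CPM, and groups of different genes share samples. The 8 can therefore not be set against a chance rate. WT NPM replicate 3 stood above the other 4 NPM samples in 3 genes, with 91.6 CPM of Wwtr1 (others 8.48 to 19.01), 39.8 CPM of Tead2 (others 0.731 to 9.72) and 572 CPM of Ankrd1 (others 0.878 to 53.2). WT NM replicate 1 stood above the other NM samples in 2 genes, with 77.1 CPM of Yap1 (others 21.4 to 33.4) and 594 CPM of Amotl2 (others 190 to 337), and it was the sample with 296 CPM of summed mesenchyme markers, whose part in these levels was not tested. Tead1 was at 144 CPM in WT M replicate 2 (other M samples 66.6 to 77.2) and at 114 CPM in WT PM replicate 3 (other PM samples 59.8 to 79.0). Ankrd1 was at 1790 CPM in 6SA M replicate 3, against 668 to 952 CPM in the other M samples.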

How the results depend on the processing

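Of 387 fold changes of the members under alternatives that left out no replicate, 339 kept their direction and side of the threshold, 30 passed it newly, 8 no longer passed and 10 changed sign. For the pathway genes 144 of 144 kept both. Counts of members called follow, with the count of all genes called in brackets, out of 31181 with no gene filter and 24004 otherwise. In the Ngn3 effect with both factors 4 were called (4279), and 7 with DESeq2 (5149) or with all libraries kept (4701). With MafA 0 were called (1121), and 1 with DESeq2 (1928), with no gene filter (2077) or with only the conditions compared. DESeq2 called 1 (224) and no gene filter 3 (542) in the effect with both factors minus Pdx1, and 1 (349) and 2 (587) in that minus MafA. No gene filter called 1 in 6SA minus WT among Ngn3-positive cells and 1 in the 6SA minus WT difference of the Ngn3 effect. In NPM against NP, called 2 (451), no gene filter gave 4 (1454), all libraries kept 0 (512) and the first technical repeat 1. In NPM against NM, called 1 (654), DESeq2 gave 3 (1935) and no gene filter 4 (1930). Over the 12 conditions, called 0 (1729), DESeq2 gave 3 (3257) and no gene filter 4 (4446). The causes were not tested.

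With a replicate block, which paired same-numbered samples, 2 members were called in the Ngn3 effect with MafA, 3 in NPM against NM and 1 over the 12 conditions, and Wwtr1 was called in the mean Ngn3 effect (−0.83, edgeR adjusted p = 0.00617). Of all 24004 genes the block called 2123, 2038, 3211 and 6620 in these comparisons. The block changed 9 calls of the members, all gained, and no other call of theirs or of the named pathway genes in the mean effect.

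Signs of values near 0 turned. With Pdx1, Wwtr1 was at −0.29 under the block, and Lats2, at −0.01, was at 0.0798 with DESeq2, 0.0804 with RLE size factors, 0.0204 with filterByExpr, 0.0162 with no gene filter, 0.12 with the first technical repeat and 0.0145 with only the conditions compared. With MafA, Tead2 was at −0.0472 under the block and −0.00443 without edgeR's legacy setting, and Lats2 at 0.0435 with the first technical repeat.

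With replicates or samples left out, the members called were 3 to 7 in the mean effect, 0 to 1 with MafA, 2 to 5 with both factors, 0 to 1 in both factors minus MafA, 0 to 2 in NPM against NP, 0 to 3 in NPM against NM and 0 to 2 over the 12 conditions. Fold changes whose sign turned ranged, in the mean effect, from −1.12 to 0.37 for Amotl2, −0.54 to 0.28 for Lats2, −0.40 to 0.20 for Stk3 and −0.17 to 0.53 for Nf2. With Pdx1 they ranged from −0.15 to 0.72 for Wwtr1, −1.28 to 0.0653 for Tead3, −1.03 to 0.57 for Amotl2, −1.23 to 0.0419 for Ankrd1 and −0.26 to 0.37 for Lats2. With MafA the ranges were −0.54 to 0.0838 for Wwtr1, −0.20 to 0.27 for Tead2, −0.50 to 0.33 for Amotl2 and −0.31 to 0.33 for Lats2, and with both factors −1.85 to 0.22 for Amotl2 and −1.12 to 0.13 for Lats2. RLE size factors moved the median of all genes in the Ngn3 effect with both factors from 0.05 to 0.17. Of 108 condition means, 103 moved by less than 1 SD with plain totals. Tead3, Tead4 and Nt5e have few reads, which limits what these libraries can show of them.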

Other observations

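The passage 5 sample of 6SA NPM, left out at 408733 gene counts, had on plain totals 176 CPM of Tead1, 29.4 CPM of Tead2, 2.45 CPM of Tead3, 78.3 CPM of Amotl2, 31.8 CPM of Lats2 and no Tead4 read, where 3 counts are 7.34 CPM. Its Tead2 level was above that of the 4 NPM samples at passage 2 (0.731 to 9.72 CPM).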
